A study of Mus musculus with 10 samples.

Results

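Claudins and the proteins that hold them in the tight junction were examined in whole kidneys of old mice, as the 10 genes Cldn2, Cldn3, Cldn4, Cldn7, Cldn8, Cldn10, Cldn16, Cldn19, Ocln and Tjp1, chosen by symbol from the 13299 genes of the table. All 10 were present and all passed the filter on low values. The study compared 5 kidneys of Rragc S74N/+ mice with 5 kidneys of Rragc +/+ mice, all aged 1.5 years and, per the study's methods, on a C57BL/6 background. The S74N change was knocked into one allele of Rragc in the germline, so every cell of the S74N/+ mice carries it. Rragc encodes RagC, a small GTPase that tells mTORC1 when nutrients are plentiful, and S74N is an activating form. Each library counts reads at the 3′ end of polyadenylated RNA, values are read counts divided by a size factor of the sample (normalized counts), and replicates carry numbers in order of accession that pair nothing.

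Tight junctions seal the space between the cells of an epithelium, and claudins set which ions cross that space. In the kidney each tubule segment carries its own claudins: the leaky proximal tubule has the cation and water pore of claudin-2, the thick ascending limb has the cation pathways of claudin-10, claudin-16 and claudin-19, and the collecting duct has a tighter mixture of claudin-4, claudin-7 and claudin-8. Claudin-3 is found in the thick ascending limb and beyond it. Occludin is a further membrane protein of the junction, and ZO-1, encoded by Tjp1, is the scaffold beneath the membrane that ties claudins and occludin to actin.

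Of the 10 genes, 2 passed the threshold of an adjusted p under 0.05 (limma on the log2 of the normalized count plus 1, two-sided, adjusted over all 13236 genes tested), Cldn10 lower and Tjp1 higher in S74N/+ kidneys. Over all genes tested 6.03% passed, 3.45% higher and 2.58% lower, and the median log2 fold change was -0.01. The other 8 genes did not pass, and 3 of 10 had an unadjusted p under 0.05, a share near the 25.4% of all genes tested. The median log2 fold change of the 10 was -0.13. Groups that did not overlap were seen in 1 of the 10 genes, Cldn10, and in 8.16% of all genes tested. Both calls lay near the threshold, and in each the call was lost when single kidneys were left out.

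The library of S74N/+ replicate 1 stood apart from the rest. Among the 8 libraries with recovered reads, its chi-square per degree of freedom against each of the others, over all genes, ran from 26.6 to 55.1, while the pairs without it ran from 4.20 to 18.9. It held the lowest value of all 10 kidneys for Cldn10, Cldn3 and Ocln and the highest for Cldn8 and Tjp1. Without it 1 of the 10 genes passed (Cldn10). So did 5 other genes of the junction or its regulators and 21 segment markers, against 5 and 19 with it. Klhl3 enters both of these counts. Both claudins that parted from their segment markers (Cldn16 and Cldn19) still did so.

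**Figure D1:**
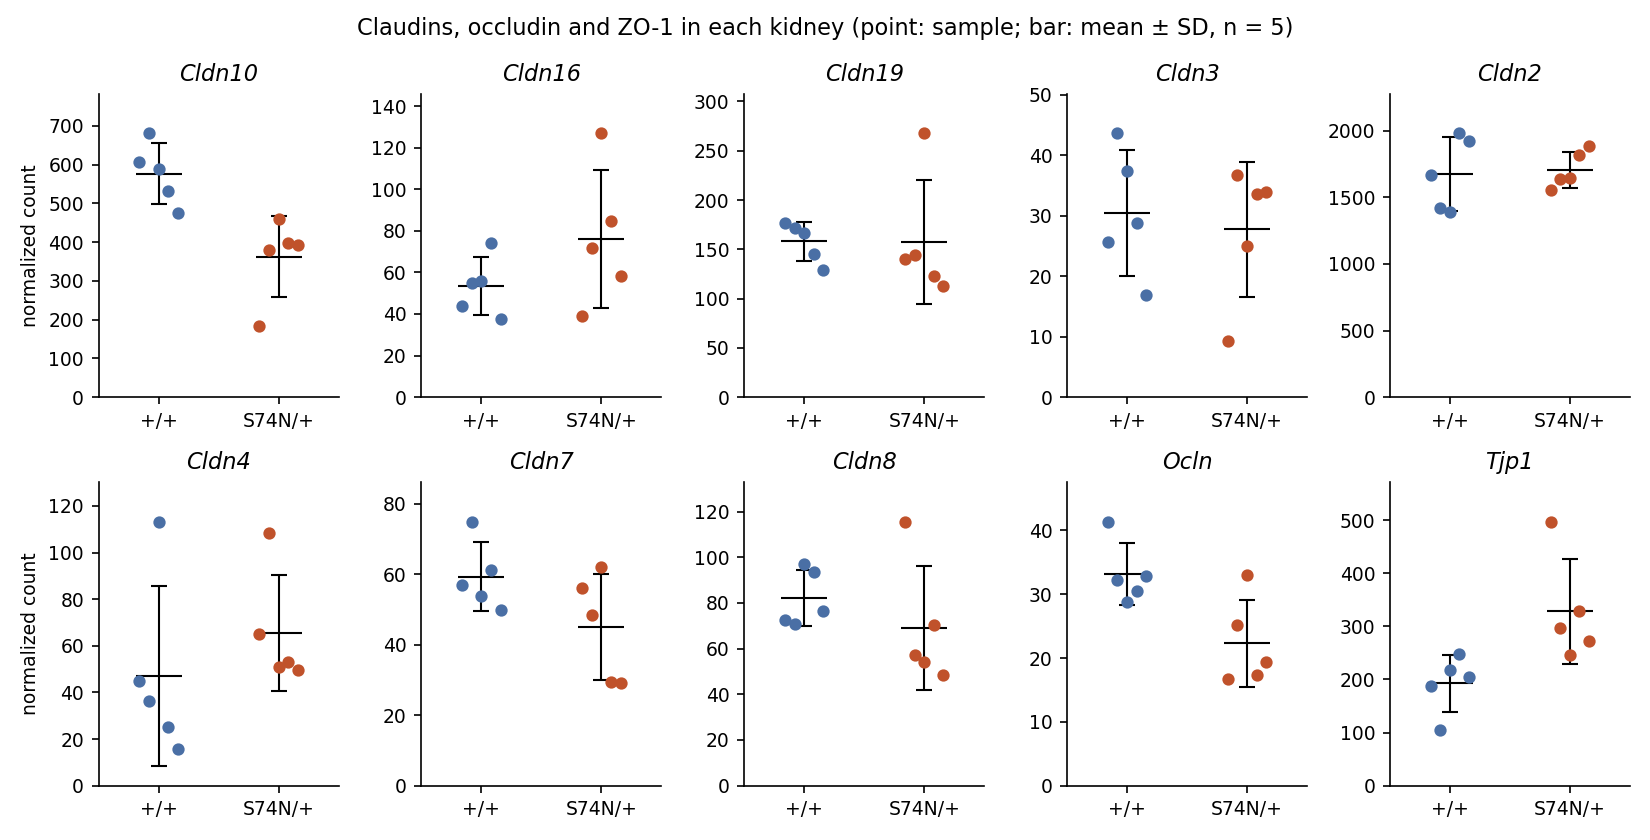
Normalized count of each gene in each kidney, with +/+ and S74N/+ on the horizontal axis, a point for each sample and a bar for the mean and SD of 5. Cldn10 is the gene whose groups part, with S74N/+ kidneys at 182.8 to 459 and +/+ kidneys at 476 to 681, and each vertical axis starts at 0.

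Cldn10 makes a cation pore of the thick ascending limb and, from another start site, an anion pore of the proximal tubule. The RefSeq windows around these starts are shown because reads at the 3′ end cannot tell the products of one start from those of the other: GENCODE vM21 (build GRCm38) holds 3 protein-coding transcript models of Cldn10 whose last exons overlap. The windows are 300 bases each, on the plus strand of build GRCm38.p6, at chr14:118787621-118787920 and chr14:118854700-118854999, and CG dinucleotides are in capitals. The window of Tjp1, the gene that was higher, is shown beside them, on the minus strand at chr7:65371195-65371494.

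Cldn10, upstream start: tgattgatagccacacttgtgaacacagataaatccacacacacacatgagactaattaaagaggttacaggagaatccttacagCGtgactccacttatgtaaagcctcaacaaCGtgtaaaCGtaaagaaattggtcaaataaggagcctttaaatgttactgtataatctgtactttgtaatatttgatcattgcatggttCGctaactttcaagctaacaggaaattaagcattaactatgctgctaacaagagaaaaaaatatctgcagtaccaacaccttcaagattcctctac
Cldn10, downstream start: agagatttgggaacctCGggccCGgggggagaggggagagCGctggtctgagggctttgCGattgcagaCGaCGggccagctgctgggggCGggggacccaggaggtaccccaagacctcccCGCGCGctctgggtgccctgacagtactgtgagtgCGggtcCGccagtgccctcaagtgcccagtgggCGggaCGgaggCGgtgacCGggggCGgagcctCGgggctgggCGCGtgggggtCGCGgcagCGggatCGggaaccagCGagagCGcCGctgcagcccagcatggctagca
Tjp1: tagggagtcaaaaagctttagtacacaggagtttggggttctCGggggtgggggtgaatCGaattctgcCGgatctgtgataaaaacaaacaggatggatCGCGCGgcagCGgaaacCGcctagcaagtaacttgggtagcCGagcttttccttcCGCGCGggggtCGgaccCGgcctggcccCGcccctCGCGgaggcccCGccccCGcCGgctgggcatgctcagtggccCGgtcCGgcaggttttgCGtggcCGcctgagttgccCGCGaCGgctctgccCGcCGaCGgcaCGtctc

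The starts of Cldn10 differed in composition, with 4 CG in the upstream and 27 in the downstream window, and the Tjp1 window held 31. A median window of all 32851 held 7, and 31.4%, 84.5% and 89.4% of all windows held fewer CG than these 3. Windows were matched by symbol for 9 of the 10 genes (13 windows), and not for Cldn8. The letters CACGTG, the E-box read by TFEB, a transcription factor downstream of mTORC1, read the same on both strands. They stood in 0 of the 13 windows and in 7.15% of all windows, which says only that these letters are not in these stretches.

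In the +/+ kidneys Cldn10 stood at 608, 681, 588, 533 and 476 normalized counts (replicates 1 to 5). The S74N/+ kidneys gave 182.8, 379, 459, 398 and 394. Every S74N/+ kidney lay below every +/+ kidney, and S74N/+ replicate 1 lay far below the other S74N/+ kidneys. The mean was 577 ± 77.8 in +/+ and 362 ± 105 in S74N/+ (SD, n = 5 per group). On the log2 scale Cldn10 fell by 0.72 ± 0.20 (SE; limma, adjusted p = 0.042). Permuted exactly, its normalized counts gave the smallest two-sided p that 5 against 5 samples allow (0.00794, unadjusted). Groups that do not overlap always give this p, so it adds nothing to that separation, seen in 8.16% of all genes tested. Without S74N/+ replicate 1 the log2 fold change was -0.49 (limma, adjusted p = 0.014). Leaving out +/+ replicate 2 gave -0.66, which did not pass (limma, adjusted p = 0.12), and 7 of the 10 fits that leave out 1 kidney lost the call. The call was lost in 3 of 12 other settings, among them scaling to equal library totals (-0.65; limma, adjusted p = 0.060).

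Cldn16 and Cldn19 together form the pore through which the thick ascending limb takes back magnesium and calcium. Cldn16 stood at 43.6, 55.1, 55.7, 74.2 and 37.8 normalized counts in +/+ kidneys. In S74N/+ kidneys it stood at 39.2, 71.7, 127, 84.5 and 58.3. The groups overlapped, with 3 of the 5 S74N/+ kidneys within the range of the +/+ kidneys. A difference of 0.44 ± 0.27 (SE) on the log2 scale missed the threshold (limma, adjusted p = 0.32). It rested in large part on S74N/+ replicate 3, without which it was 0.23 (limma, adjusted p = 0.60). Without +/+ replicate 5 it was 0.33 (limma, adjusted p = 0.49). The 8 kidneys with recovered reads leave out both. On them limma, edgeR and DESeq2 gave 0.12, 0.15 and 0.14 (adjusted p = 0.81, 0.75 and 0.81).

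Cldn19 stood at 176.8, 172, 167, 145 and 129 normalized counts in +/+ kidneys and at 140, 144, 268, 123 and 113 in S74N/+ kidneys. S74N/+ replicate 3 was the highest of all 10, and S74N/+ replicates 4 and 5 were below the lowest +/+ kidney. Its log2 fold change was -0.07 ± 0.20 (SE; limma, adjusted p = 0.87), and the sign turned when the libraries were scaled to equal totals.

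Cldn10, with the reads of both its starts counted together, was then set against Cldn16 and Cldn19 within each kidney. It was 13.9, 12.4, 10.6, 7.18 and 12.6 times Cldn16 in the +/+ kidneys. In the S74N/+ kidneys it was 4.67, 5.28, 3.61, 4.71 and 6.75 times Cldn16. These ranges did not overlap. Against Cldn19 the ratio was 3.44 to 3.97 in +/+ and 1.31 to 3.49 in S74N/+ kidneys, which overlapped through S74N/+ replicate 5. The ratios were chosen after the values were seen and carry no test, and since both genes are counted in the same library they do not depend on how the libraries were scaled.

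The thick ascending limb was also read through 9 other genes known from it. Enox1 and Cldn14, also on that list, were not analysed here. Of the 9 tested, 6 were lower in S74N/+ kidneys and 0 higher, and the median log2 fold change was -0.84. Umod, which encodes uromodulin, the main protein of normal urine, stood at 5392, 5726, 4848, 6897 and 6167 normalized counts in +/+ kidneys. In S74N/+ kidneys it stood at 1005, 1785, 3306, 2517 and 1979. The groups were far apart, and the log2 fold change was -1.55 ± 0.23 (SE; limma, adjusted p = 0.0013). Ptger3 (-2.05 ± 0.31), Egf (-1.05 ± 0.16) and Bsnd (-1.06 ± 0.21) were lower as well (SE; limma, adjusted p = 0.0015, 0.0013 and 0.0090). Slc12a1, the sodium, potassium and chloride cotransporter that defines the segment, did not follow them. It stood at 2724, 2739, 2868, 3842 and 3474 normalized counts in +/+ kidneys and at 2343, 2608, 5062, 3609 and 2968 in S74N/+ kidneys (log2 fold change 0.04 ± 0.18, SE; limma, adjusted p = 0.91). S74N/+ replicate 3 was the highest kidney for Slc12a1 and for Cldn10, Cldn16, Cldn19 and Umod among the S74N/+ group. The summed level of the list ran from 12282 to 16532 normalized counts in +/+ and from 5547 to 11785 in S74N/+ kidneys. Most of this sum was Slc12a1, Umod and Egf. Their means were 3130, 5806 and 3201 of 14127 in +/+ and 3318, 2119 and 1560 of 8142 in S74N/+ kidneys. No marker was at 0 in a whole group. In whole kidney, fewer cells of a segment and less RNA per cell cannot be told apart.

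**Figure D2:**
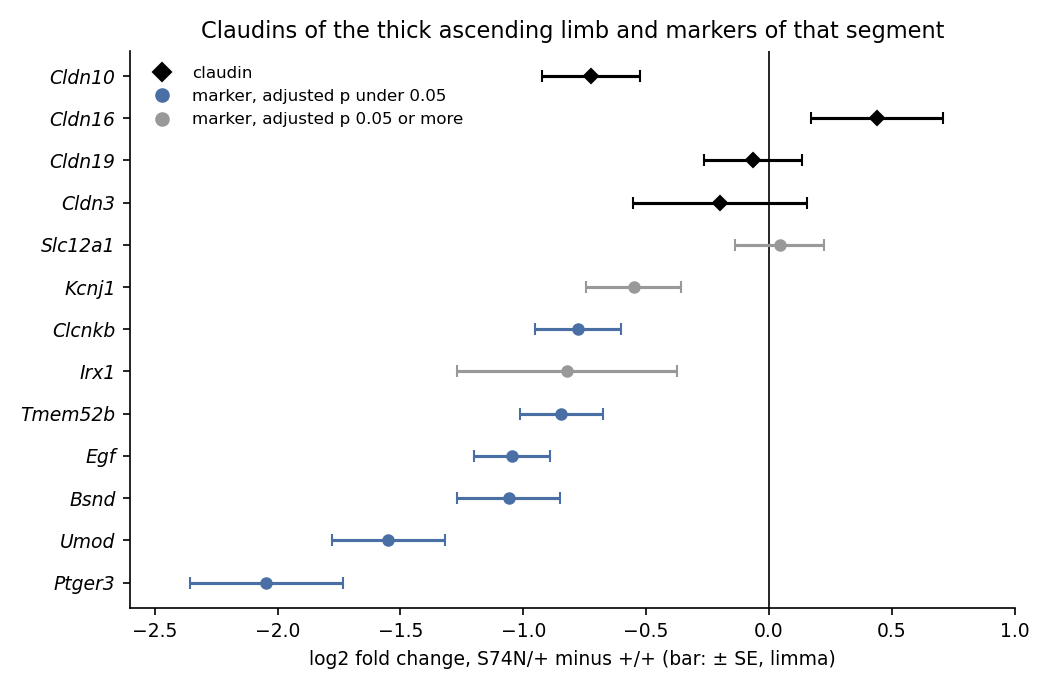
Log2 fold change (S74N/+ minus +/+, horizontal axis, with SE) of 4 claudins of the thick ascending limb (diamonds) and 9 marker genes of that segment (circles, blue where the adjusted p was under 0.05). Cldn10 at -0.72, both its starts counted together, lies among the markers, which run from -2.05 to 0.04, and Cldn16 at 0.44 lies to the right of all 9.

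To ask whether a claudin moved with its segment, the log2 value of each claudin was set against the mean log2 value of its segment's markers in the same kidney. The mean of the thick ascending limb markers fell by 0.96 on the log2 scale (8.97 ± 0.08 in +/+ and 8.01 ± 0.43 in S74N/+, SD, n = 5 per group; exact permutation p = 0.00794). Against it, Cldn16 was higher in S74N/+ kidneys by 1.40 (-3.25 ± 0.31 against -1.85 ± 0.22, SD, n = 5 per group; exact permutation p = 0.00794, 0.032 adjusted over the 8 claudins tested). Cldn19 was higher by 0.89 (-1.67 ± 0.17 against -0.77 ± 0.43, SD, n = 5 per group), with the same exact permutation p-values. For both, every S74N/+ kidney lay above every +/+ kidney, a separation that always gives this unadjusted p. Each difference includes the fall of 0.96 in the marker mean. In their own counts neither passed (log2 fold change 0.44 for Cldn16 and -0.07 for Cldn19; limma, adjusted p = 0.32 and 0.87). How many of all genes tested would part from this mean was not computed. Cldn10 differed by 0.24 (0.19 ± 0.15 against 0.43 ± 0.29, SD, n = 5 per group; exact permutation p = 0.12, adjusted 0.19), so no departure from the mean of these markers was shown. Its reads can include the proximal tubule form, which 3′ counts do not separate, so the thick ascending limb form alone was not tested. Whether the claudins passed depended on the markers. Against Slc12a1 alone, chosen after its values were seen, 0 of the 4 claudins of the segment passed. Here p-values were adjusted over these 4 only. Cldn16 stood at 0.40 and Cldn10 at -0.77 (exact permutation test, each adjusted p = 0.13). Against Umod alone, adjusted in the same way, all 4 passed, with Cldn16 at 1.99, Cldn19 at 1.48, Cldn3 at 1.35 and Cldn10 at 0.83. With the median of the markers in place of their mean, 0 of the 8 claudins passed, though Cldn16 stood at 1.22 and Cldn19 at 0.71 (exact permutation test, adjusted p = 0.063 and 0.11).

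**Figure D3:**
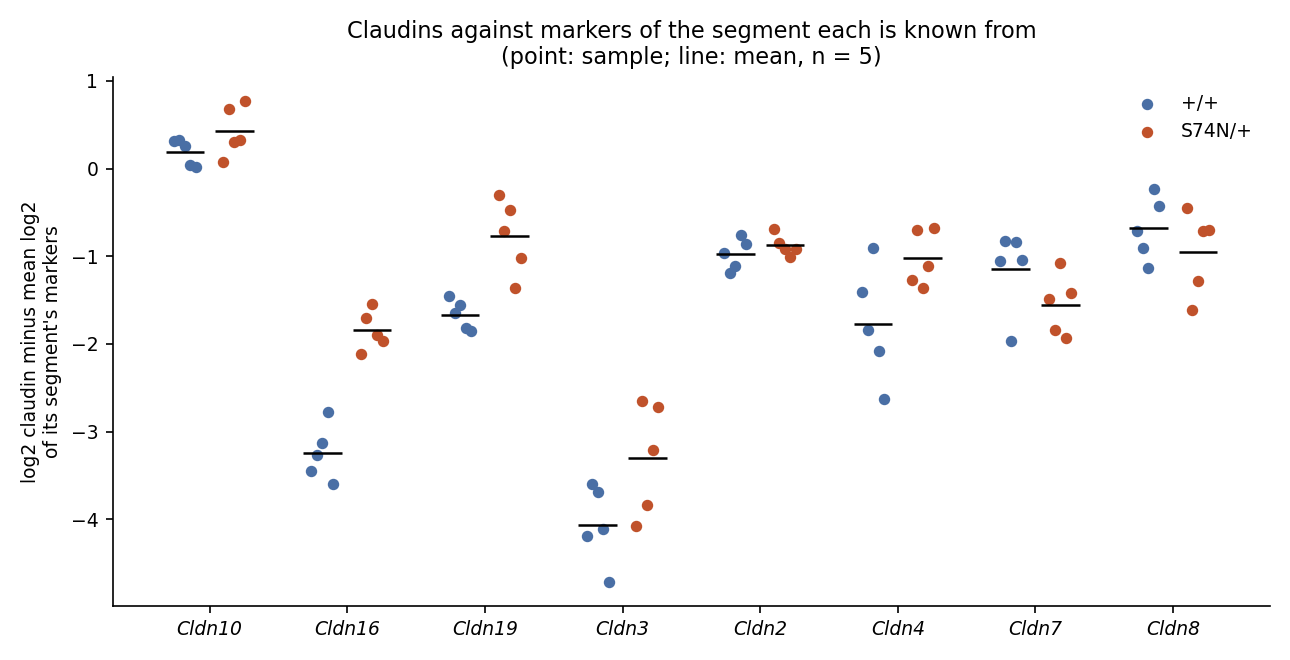
Log2 value of each claudin minus the mean log2 value of the markers of its segment (vertical axis), for 5 +/+ (blue) and 5 S74N/+ (orange) kidneys, with a line at each mean. Cldn16 and Cldn19 part by genotype, with means of -3.25 and -1.85 for Cldn16, while the other 6 claudins overlap. The mean of the thick ascending limb markers itself fell by 0.96.

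Cldn2 is the pore that makes the proximal tubule leaky to sodium and water. It stood at 1668, 1417, 1386, 1981 and 1921 normalized counts in +/+ kidneys. The S74N/+ kidneys, at 1554, 1639, 1643, 1814 and 1881, all lay within that range. The log2 difference was 0.04 ± 0.12 (SE; limma, adjusted p = 0.87). Of 12 proximal tubule markers 1 was called, Slc5a2, the glucose transporter of the early proximal tubule, at -1.05 ± 0.14 (SE; limma, adjusted p = 4.8e-04). The endocytic receptor Lrp2 stood at 5579 ± 632 normalized counts in +/+ and 6446 ± 1383 in S74N/+ kidneys (SD, n = 5 per group; limma, adjusted p = 0.42). The summed level of the list ran from 62268 to 77679 in +/+ and from 62753 to 81184 in S74N/+ kidneys. Against the mean of these markers Cldn2 differed by 0.10 (exact permutation p = 0.31, adjusted 0.33).

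Cldn8 and Cldn4 form the paracellular chloride pathway of the collecting duct. Cldn8 stood at 72.7, 70.7, 97.0, 93.4 and 76.6 normalized counts in +/+ kidneys and at 116, 57.2, 54.0, 70.3 and 48.6 in S74N/+ kidneys. In 4 of 5 S74N/+ kidneys it was below the lowest +/+ kidney, while S74N/+ replicate 1 was above the highest. Its log2 fold change was -0.31 ± 0.22 (SE; limma, adjusted p = 0.40). Without S74N/+ replicate 1 it was -0.51 and did not pass (limma, adjusted p = 0.092).

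Cldn4 stood at 44.8, 36.4, 113, 25.3 and 15.9 normalized counts in +/+ kidneys and at 65.3, 109, 51.0, 53.0 and 49.5 in S74N/+ kidneys. A single +/+ kidney, replicate 3, stood above every S74N/+ kidney, and the other +/+ kidneys stood below all of them. Over all 10 kidneys the log2 fold change was 0.71 ± 0.39 (SE; limma, adjusted p = 0.26). The size of this value turned on the kidneys used, and less on the model. Leaving out +/+ replicate 3 gave 1.10 and leaving out +/+ replicate 5 gave 0.41, and neither passed (limma, adjusted p = 0.052 and 0.49). The 8 kidneys with recovered reads leave out +/+ replicate 5 and S74N/+ replicate 3. On them limma gave 0.49, edgeR 0.34 and DESeq2 0.33 (adjusted p = 0.45, 0.63 and 0.66). The kidney with the highest Cldn4, +/+ replicate 3, also held the highest summed level of the principal cell markers, 3745 normalized counts. The other +/+ kidneys lay between 1268 and 1796 and the S74N/+ kidneys between 1255 and 3062. Aqp2, the water channel of principal cells, stood at 800.0 ± 762 in +/+ and 926 ± 614 in S74N/+ kidneys (SD, n = 5 per group; limma, adjusted p = 0.73). The part of these cells in the level of Cldn4 was not tested.

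Cldn7 lines the sides and base of distal tubule cells. It stood at 57.1, 74.9, 53.8, 61.1 and 49.8 normalized counts in +/+ kidneys and at 56.0, 48.5, 62.0, 29.5 and 29.2 in S74N/+ kidneys. In S74N/+ replicates 4 and 5 it was far below the rest, and 2 S74N/+ kidneys lay within the +/+ range. For Cldn7 the log2 difference was -0.44 ± 0.23 (SE; limma, adjusted p = 0.24).

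Cldn3 is a sealing claudin of the thick ascending limb and distal tubule. It stood at 25.7, 43.7, 37.4, 28.8 and 16.9 normalized counts in +/+ kidneys and at 9.33, 36.8, 25.0, 33.6 and 34.0 in S74N/+ kidneys. Apart from S74N/+ replicate 1, the lowest of all 10, the S74N/+ kidneys lay within the +/+ range. The log2 fold change was -0.20 ± 0.35 (SE; limma, adjusted p = 0.77) and turned to 0.14 without S74N/+ replicate 1. Of 9 collecting duct principal cell markers tested, 0 passed by limma and 1 had an unadjusted p under 0.05. Against their mean, Cldn4 differed by 0.75, Cldn8 by -0.27 and Cldn7 by -0.41, and none passed the exact permutation test (adjusted p of 0.15, 0.33 and 0.21). Set against the thick ascending limb markers instead, Cldn8 and Cldn7 turned to 0.66 and 0.52 and Cldn4 to 1.67, and again none passed.

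Ocln encodes occludin, which shapes the strands of the junction. It stood at 41.4, 32.3, 28.8, 30.6 and 32.8 normalized counts in +/+ kidneys. In S74N/+ kidneys it stood at 16.8, 25.2, 33.0, 17.3 and 19.4. In 4 of 5 S74N/+ kidneys it was below the lowest +/+ kidney, and S74N/+ replicate 3 lay within the +/+ range. At -0.58 ± 0.24 (SE) on the log2 scale it missed the threshold (limma, adjusted p = 0.15, unadjusted p = 0.028), and no alternative run brought it past the threshold, with adjusted p-values from 0.077 to 0.28. An exact permutation test of Ocln alone, unadjusted, gave p = 0.040.

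Tjp1 stood at 187, 104, 218, 248 and 205 normalized counts in +/+ kidneys. It stood at 497, 298, 246, 328 and 272 in S74N/+ kidneys. The groups touched at their edges, since S74N/+ replicate 3 lay just below +/+ replicate 4. S74N/+ replicate 1 was the highest of all 10 and +/+ replicate 2 the lowest. The mean was 192 ± 54.2 in +/+ and 328 ± 99.2 in S74N/+ (SD, n = 5 per group). On the log2 scale Tjp1 rose by 0.78 ± 0.22 (SE; limma, adjusted p = 0.048), with an exact permutation p of 0.016, unadjusted. The call was lost in 9 of the 10 fits that leave out 1 kidney and in 4 of 12 other settings. It came to 0.57 without +/+ replicate 2 and 0.62 without S74N/+ replicate 1 (limma, adjusted p = 0.114 and 0.0502). edgeR and DESeq2 on the whole reads recovered for 8 kidneys gave 0.89 and 0.88 (adjusted p = 0.0498 and 0.0138).

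Podocytes, endothelium and other cells also carry ZO-1. The summed level of 7 podocyte markers ran from 916 to 1013 normalized counts in +/+ and from 1049 to 1326 in S74N/+ kidneys, and that of 8 leukocyte markers from 1223 to 1717 and from 2370 to 3162. Most of the leukocyte sum was Cd74, with 909.5 of a mean of 1463 in +/+ and 1864 of 2781 in S74N/+ kidneys. For 7 fibroblast markers the sum ran from 810 to 1415 and from 1314 to 2202, and for 8 endothelial markers from 1861 to 2084 and from 1675 to 2081. Their part in the level of Tjp1 was not tested.

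**Figure D4:**
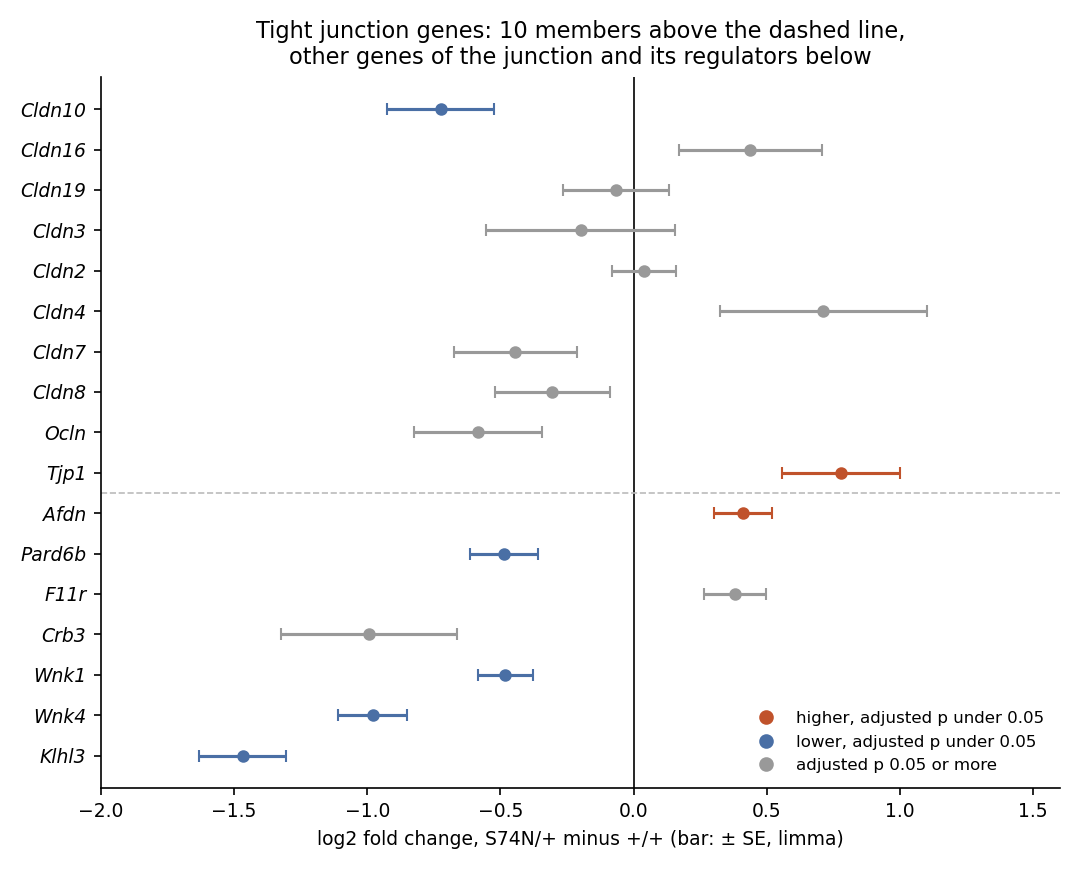
Log2 fold change (S74N/+ minus +/+, horizontal axis, with SE) of the 10 genes above the dashed line and of 7 other genes of the junction or its regulators below it, in color where the adjusted p was under 0.05. Cldn10 at -0.72 and Tjp1 at 0.78 are colored among the 10, and Klhl3 at -1.47 lies farthest from 0.

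The rest of the junction was read through 71 further genes in lists of claudins, membrane proteins, plaque proteins and regulators, of which 54 were tested. Of these 54, 1 was higher and 4 were lower, and the median log2 fold change was -0.08. The calls fell among plaque proteins and regulators. Of 5 other claudins 0 passed by limma, and 0 had an unadjusted p under 0.05, with values between -0.74 (Cldn34c1) and 0.19 (Cldn5). Of 13 other membrane proteins 0 passed by limma and 5 (38.5%) had an unadjusted p under 0.05, where 25.4% of all genes did. The highest value of the list was Jam2, at 0.51 (limma, adjusted p = 0.61), and the lowest was Crb3. Crb3, a polarity protein of the apical membrane, had 51.5 ± 16.6 normalized counts in +/+ and 26.6 ± 10.6 in S74N/+ kidneys (SD, n = 5 per group; log2 fold change -0.99, limma, adjusted p = 0.081). F11r, which encodes the junctional adhesion molecule JAM-A, had 285 ± 30.3 and 372 ± 36.5 (log2 fold change 0.38, limma, adjusted p = 0.062). The other 3, named after their values were seen, were Lsr and Ildr1, which encode the angulins that gather where the corners of several cells meet, and Jam3, another junctional adhesion molecule. Lsr stood at 213 ± 30.4 and 158 ± 42.5, Ildr1 at 69.8 ± 18.5 and 47.5 ± 7.71 and Jam3 at 59.7 ± 10.2 and 41.3 ± 5.52 normalized counts in +/+ and S74N/+ kidneys (SD, n = 5 per group; limma, adjusted p = 0.13, 0.12 and 0.11).

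Of 21 other plaque proteins, 1 rose and 1 fell. Afdn encodes afadin, which links nectins to actin and binds ZO-1. It stood at 235, 279, 292, 261 and 299 normalized counts in +/+ kidneys and at 376, 350, 359, 375 and 352 in S74N/+ kidneys. Every S74N/+ kidney was above every +/+ kidney (log2 fold change 0.41 ± 0.11, SE; limma, adjusted p = 0.035). Pard6b, a subunit of the PAR polarity complex, stood at 238, 191, 233.3, 204 and 238 in +/+ kidneys and at 131, 180, 157, 164 and 156 in S74N/+ kidneys. Here every S74N/+ kidney was lower (-0.49 ± 0.13, SE; limma, adjusted p = 0.035). The highest log2 fold change of the list, Magi3 at 0.41, did not pass (limma, adjusted p = 0.15). Leaving out 1 kidney cost the call in 7 of 10 fits for Afdn and 8 of 10 for Pard6b. In the 12 other settings Afdn lost it in 2 and Pard6b in 5, among them edgeR, DESeq2 and equal library totals (adjusted p for Pard6b of 0.085, 0.065 and 0.074).

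Of 15 regulators of claudins, 3 fell and 0 rose. Wnk4 and Wnk1 encode WNK kinases, which phosphorylate claudins and steer salt transport in the distal nephron, and Klhl3 encodes the adaptor that marks WNK kinases and claudin-8 for degradation. Klhl3 stood at 536, 449, 454, 513 and 496 normalized counts in +/+ kidneys and at 163, 163, 130, 275 and 178 in S74N/+ kidneys (-1.47 ± 0.16, SE; limma, adjusted p = 9.4e-05). Wnk4 stood at 386, 446, 369, 415 and 342 in +/+ kidneys and at 182.8, 196, 250, 201 and 166 in S74N/+ kidneys (-0.98 ± 0.13, SE; limma, adjusted p = 5.1e-04). Wnk1 fell less, from 1731 ± 89.2 to 1243 ± 139 (SD, n = 5 per group; -0.48 ± 0.10, SE; limma, adjusted p = 0.014). The groups did not overlap for any of the 3, and leaving out 1 kidney at a time left each call in place. Wnk1 lost its call in 2 of 12 other settings. At the other end of the list Oxsr1, a kinase downstream of the WNKs, stood at 0.23 (limma, adjusted p = 0.43). Klhl3 is also a marker of the distal convoluted tubule. All 7 markers of that segment were lower, Slc12a3, the thiazide-sensitive cotransporter, by 1.94 on the log2 scale (4056 ± 353 in +/+ and 1078 ± 247 in S74N/+, SD, n = 5 per group; limma, adjusted p = 1.6e-06). Pvalb (-4.93) and Trpm6 (-1.54), a magnesium channel, were lower too (limma, adjusted p = 9.4e-05 and 8.7e-04). The summed level of the 7 ran from 4869 to 5956 in +/+ and from 1298 to 2183 in S74N/+ kidneys, with none at 0 in a whole group. Most of this sum was Slc12a3, with 4056 of a mean of 5577 in +/+ and 1078 of 1710 in S74N/+ kidneys. Beyond these, 0 of 5 thin limb markers passed by limma (0 at an unadjusted p under 0.05), 3 of 6 connecting tubule markers were lower (Calb1 at -0.74, Tmem52b at -0.84 and Klk1 at -0.67), and of 10 intercalated cell markers 2 were lower (Slc4a1 at -1.19 and Aqp6 at -1.04) and 1 higher (Slc26a4 at 0.72). Higher in S74N/+ kidneys were 4 of 8 leukocyte, 3 of 7 fibroblast, 2 of 7 podocyte and 3 of 9 tubule injury markers, and 1 of 8 endothelial markers was lower. The part of the cells of the distal convoluted tubule in the levels of Klhl3 and the WNK kinases was not tested.

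The number in the sample titles falls into a range under 200 and one over 200, each with both genotypes. Cldn10 differed by -0.98 ± 0.29 (SE) among the 3 kidneys per group of the lower range and by -0.35 ± 0.14 among the 2 per group of the upper range (limma, adjusted p = 0.16 and 0.19). Tjp1 differed by 1.03 ± 0.31 and 0.40 ± 0.17 (limma, adjusted p = 0.16 and 0.20). Both kept their direction in both ranges, and neither passed in a range alone. In the upper range Cldn4 differed by 1.31 ± 0.38 (SE; limma, adjusted p = 0.042), and in the lower by 0.32 ± 0.42 (adjusted p = 0.71). What the title numbers stand for is not given in the sources used here.

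**Figure D5:**
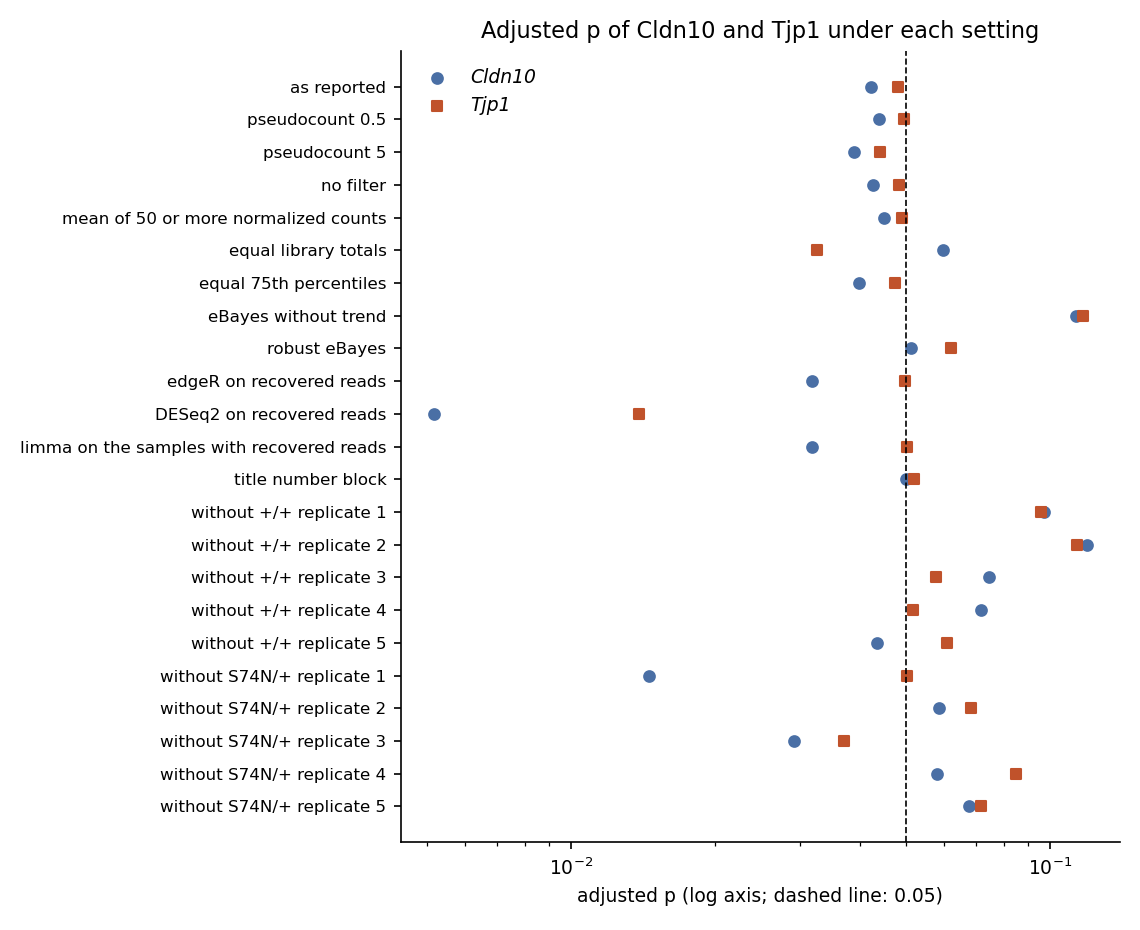
Adjusted p of Cldn10 (circles) and Tjp1 (squares) under each setting or left-out kidney (vertical axis), on a log axis with a dashed line at 0.05. For Cldn10 the values run from 0.0052 with DESeq2 to 0.12 without +/+ replicate 2, and those of both genes lie on both sides of the line.

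Genes whose level followed that of a gene most closely were sought after the mean of each genotype had been taken away, over all 10 kidneys. For Cldn10 they were Tm2d2, Slc25a3, Dvl1, mt-Nd2 and Ndufab1, with Pearson r between 0.991 and 0.996, and between 0.946 and 0.980 without S74N/+ replicate 1. For Tjp1 they were Sec23ip, 4932438A13Rik, Layn, Slc26a2 and Leprot (0.943 to 0.957), and for Ocln Tmem183a, Gm43774, Terf2, Fam71e1 and Gcgr (0.917 to 0.953). They are the highest of 13236 values each and describe these libraries only.

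Sums of normalized counts ran from 4473981 to 5087152 over the 10 samples, and 33.8% to 38.0% of them came from the mitochondrial genome. Reads recovered for 8 samples ran from 4488493 to 5797251. Rragc itself was at -0.22 ± 0.20 (log2 fold change, SE; limma, adjusted p = 0.51), and 3′ counts do not show the allele. The Y-linked genes Ddx3y, Uty, Kdm5d and Eif2s3y were present in all 10 samples.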

How the data were processed

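Kidneys of 5 Rragc S74N/+ and 5 Rragc +/+ mice were profiled by 3′ mRNA sequencing (300 ng of RNA; quality scores of 6.2 to 7). Per the submitters' processing notes and the study's methods, the authors checked reads with FastQC 0.11.7, aligned them to GRCm39 with TopHat2 2.0.10, Bowtie 1.0.0 and SAMtools 0.1.19, and counted sense reads with HTSeq 0.6.1. The deposited values are a signal, counts that the authors divided by a size factor of each sample. Genes absent from the table were not analysed here. A gene was tested at 5 or more normalized counts in 5 or more samples (13236 of 13299). Log2 of the value plus 1 was fitted on genotype with limma 3.58.1 (R 4.3.3, eBayes with trend), two-sided, Benjamini-Hochberg over all genes, threshold 0.05. Fold changes on this scale understate the change of low genes. In 8 columns 100% of values came out as whole reads (within 0.01 read), and edgeR 4.0.16 and DESeq2 1.42.0 were run on these as alternatives, edgeR calling 851 genes over the whole table and DESeq2 1402. The 2 other columns, whose step lay too near 1, did not enter the count models. Each pair of the 8 libraries differed by more than sampling noise. Claudins were set against markers of their segment by permuting the genotypes exactly (252 allocations of the 10 samples, two-sided).

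The 10 genes and all lists were chosen with earlier results of these data known. Named are the 10 genes, and every other gene of the junction or its regulators past the threshold. Also named are the ends of each of those lists, segment markers past the threshold (at most 4 a list), and a few defining markers. F11r, Lsr, Ildr1 and Jam3 were named after their values were seen. Alternatives were pseudocounts of 0.5 and 5, no filter, a mean of 50 or more, equal library totals or 75th percentiles, no trend, robust eBayes, the count models, limma on the same 8 samples, a block for the title number, and leaving out each kidney. Scripts were tested on simulated data. Some results are not reported here. Promoter windows come from RefSeq, GRCm38.p6.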

Additional observations from a re-analysis of the deposited data

Results flagged for a closer look

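A sample far from its group was sought in 46 groups of 5 samples by Dixon's criterion for 5 samples (0.71). Searched were the normalized counts of the 10 genes and of 5 other genes of the junction or its regulators. The 8 claudins against their segment markers were searched too. Of the 46 groups, 4 held such a sample, where chance gives about 2.3. Cldn10 in S74N/+ replicate 1 was 182.8 normalized counts, with the next at 379. Cldn4 in S74N/+ replicate 2 was 109, with the next at 65.3. Cldn19 in S74N/+ replicate 3 was 268, with the next at 144. Cldn7 against the principal cell markers was -1.97 in +/+ replicate 3, with the next at -1.06, in the kidney with the highest summed level of those markers.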

How the results depend on the processing

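No paired analysis was possible because the labels give no replicate numbers that both genotypes share. With the title number as a block instead, 1 of the 10 genes passed (Cldn10; limma, adjusted p = 0.0499). The count of 2 was kept in 7 of 12 other settings and moved to 1 with equal library totals (Tjp1) and with limma on the 8 samples of recovered reads (Cldn10), and to 0 without the variance trend and with robust eBayes. Leaving out 1 kidney gave 0 to 2 genes. For the other genes of the junction or its regulators the 5 calls moved to 2 without the trend. They moved to 3 with edgeR and with limma on 8 samples, and to 6 with DESeq2 and with a mean of 50 or more. With 1 kidney left out they lay between 3 and 5. Calls among the 57 segment markers, 19 of them, stayed between 13 and 21 in all settings. The count of genes whose groups did not overlap ran from 1 to 3 with 1 kidney left out. Of the 8 claudins set against their markers, 2 passed, 0 with the median of the markers, and 0 to 4 with 1 kidney left out, where 4 against 5 samples allow no p under 0.00794. Only the 4 claudins of the thick ascending limb were set against single markers, adjusted over these 4. Of them 0 passed with Slc12a1 alone and 4 with Umod alone (both chosen after the data were seen). Signs turned for Cldn19 with equal totals (0.012), for Cldn2 (-0.025 to 0.10), Cldn3 (-0.39 to 0.14) and Cldn19 (-0.28 to 0.035) with 1 kidney left out, and against markers for Cldn2 with the median (-0.054), for Cldn3 (-0.16), Cldn8 (0.66) and Cldn7 (0.52) with the other distal list, and for Cldn10 (-0.77), Cldn19 (-0.11) and Cldn3 (-0.24) with Slc12a1 alone. The cause was not tested. Cldn3, Cldn4, Cldn7, Cldn8, Cldn16 and Ocln rest on fewer than 130 normalized counts a sample, where counting error is large.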
